A study of Mus musculus with 10 samples.

Results

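The 10 genes described here are textbook targets of Wnt signalling, read in tumours grown from a mouse colon carcinoma line. They were chosen by symbol, and all 10 of 10 were found among the 21849 genes of the count table. By role they are the feedback inhibitors Axin2, Rnf43, Znrf3, Nkd1 and Notum, the intestinal stem cell genes Lgr5, Ascl2 and Sox9, and the growth genes Myc and Ccnd1. The tumours came from CT26, an undifferentiated colon carcinoma line of the BALB/c strain, placed under the skin of BALB/c mice that were 5 weeks old at the start. There were 5 libraries of mice on an arginine-deficient diet and 5 of mice on a normal diet of equal calories. The diet began 1 week before implantation, and the tumours were taken on day 20. Both groups shared the line, the strain and the site under the skin, so a single cell line in a place other than the colon stood for colon carcinoma, and host cells were sequenced with the tumour cells. The labels do not tie a library to a numbered animal, so the p-values measure the spread between these libraries.

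Library totals ran from 12013178 to 31530123 counts, and values are given as CPM, counts scaled to equal library totals with TMM factors. In the test of all 12929 genes with enough counts, 7 genes were higher on the arginine-deficient diet and 0 were lower, at an adjusted p under 0.05 (edgeR quasi-likelihood test). At an unadjusted p under 0.05 there were 458 higher (3.54%) and 413 lower (3.19%) genes. Skeletal muscle transcripts summed to 6830 and 1939 CPM in replicates 3 and 4 of the deficient diet and to 662.6 CPM in replicate 4 of the normal diet, against 10.33 to 100.9 CPM elsewhere. Arginine-deficient replicate 3 also held 9.97% mitochondrial counts, against 1.67% to 4.44% in the other libraries. In such bulk tissue, fewer cells of a type and less RNA per cell cannot be told apart.

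The colon label was set against markers. Of 16 genes of colon epithelium, 12 averaged under 1 CPM, including Epcam, Cdx2 and Vil1. Krt20, a keratin of mature gut epithelium, was the highest, at 87.4 to 211 CPM on the arginine-deficient diet and 181 to 267 CPM on the normal diet. All 10 genes of a mesenchymal state averaged at least 1 CPM, with Vim, which encodes the filament protein vimentin, at 5279 ± 1028 CPM on the deficient diet and 6058 ± 639 CPM on the normal diet (± SD over 5 libraries each). With most epithelial colon markers under 1 CPM, the tumours are called CT26 tumours below.

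Wnt ligands bind Frizzled receptors with their partners Lrp5 and Lrp6, which stops the destruction complex of Apc, Axin and Gsk3 from marking beta-catenin for breakdown. Beta-catenin then enters the nucleus, joins TCF and LEF factors on DNA and switches on target genes. Several of these targets feed back on the pathway, others keep the stem cells of the intestinal crypt, and Myc and Ccnd1 drive growth and the cell cycle. In most human colorectal cancers the pathway is held on by loss of APC.

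The members divided into an upper and a lower set by abundance. Per kilobase of exon, Ccnd1 had the highest mean level over the 10 libraries, at 167 CPM per kilobase. Myc followed at 72.5, Sox9 at 12.9 and Znrf3 at 2.70 CPM per kilobase. Each of these 4 lay above the next in every library. Ascl2 came after them at 0.366, Rnf43 at 0.136, Nkd1 at 0.0610, Axin2 at 0.0558, Lgr5 at 0.00885 and Notum at 0.00249 CPM per kilobase. Ascl2 lay above Nkd1 and Axin2 in all 10 libraries, and so did Rnf43, while Ascl2 was above Rnf43 in 9 of 10. Nkd1 exceeded Axin2 in 4 of 10 libraries, so these neighbours did not separate. Lgr5 exceeded Notum in 5 of 10, and most of the other libraries were ties at 0 counts. With so few counts, this pair did not separate either. Of the 5 feedback inhibitors, Znrf3 alone belonged to the upper set.

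**Figure D1:**
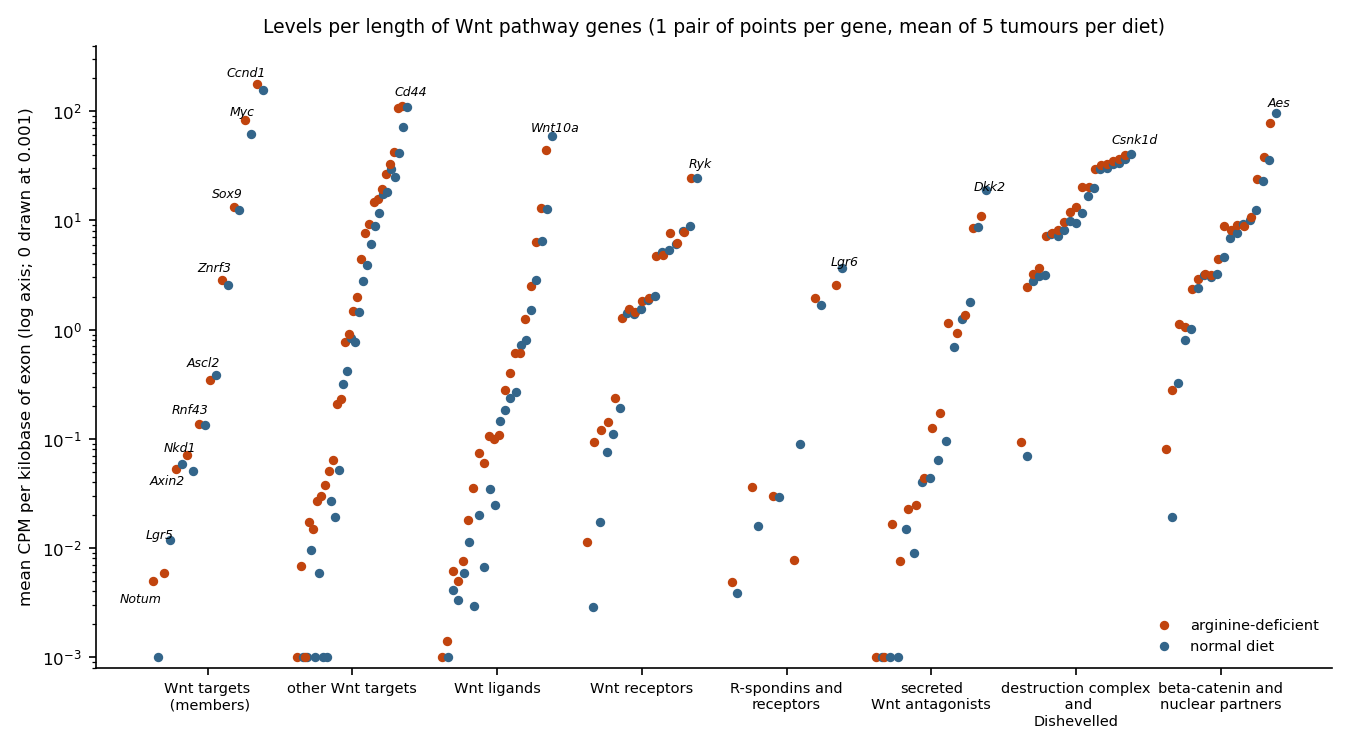
Mean CPM per kilobase of exon on a log axis, as 1 pair of points per gene (arginine-deficient diet left, normal diet right, 5 libraries each), for the 10 members and 7 lists of pathway genes, with genes at 0 drawn at 0.001. Ccnd1 and Myc stand near the top of the pathway, while Axin2, Nkd1, Lgr5 and Notum lie under 0.1 CPM per kilobase.

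Axin2, a scaffold of the destruction complex and the most widely used readout of the pathway, was barely counted. Its 5 arginine-deficient libraries held 8, 4, 14, 9 and 1 counts, and its 5 normal-diet libraries 8, 14, 5, 6 and 0 counts. That is 0.293 ± 0.165 CPM on the deficient diet and 0.321 ± 0.244 CPM on the normal diet (± SD over 5 libraries each). The diets overlapped across their whole range, and a level of 3 counts, taken as the limit of detection, corresponds to 0.0952 to 0.252 CPM in these libraries. Axin2 was too low for the test of all genes. In a fit of 17586 genes without a filter on low counts, where 0.0455% of genes were called, its log2 fold change was -0.14 (SE 0.65, adjusted p = 0.991 by edgeR). The gene (ENSMUSG00000000142.15) lies at positions 108920349 to 108950783 of chromosome 11 on mm10, plus strand.

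Promoter windows of RefSeq (GRCm38.p6, 250 bases before the start and 50 after it) covered 4 of the 10 members, namely Axin2, Rnf43, Nkd1 and Ascl2. They were searched on both strands for CTTTGA and CTTTGT, the core letters that TCF and LEF factors read, and 31.2% of all 32851 windows hold at least 1 of them. No window of the 4 members did. The Axin2 window is shown because Axin2 is the common readout of the pathway. That of Sp5, a transcription factor gene and another direct Wnt target, is shown beside it because it held 5 matches, in capitals. Sp5 had 1 count over the arginine-deficient libraries and 0 over the normal-diet ones. A match is only a match of letters.
Axin2, chr11:108920099-108920398, plus strand: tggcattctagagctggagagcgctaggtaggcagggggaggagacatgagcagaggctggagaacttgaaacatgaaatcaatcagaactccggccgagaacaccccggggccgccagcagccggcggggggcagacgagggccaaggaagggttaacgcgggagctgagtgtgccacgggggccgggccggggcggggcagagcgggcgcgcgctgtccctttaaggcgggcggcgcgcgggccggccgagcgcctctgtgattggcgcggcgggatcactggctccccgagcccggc
Sp5, chr2:70474673-70474972, plus strand: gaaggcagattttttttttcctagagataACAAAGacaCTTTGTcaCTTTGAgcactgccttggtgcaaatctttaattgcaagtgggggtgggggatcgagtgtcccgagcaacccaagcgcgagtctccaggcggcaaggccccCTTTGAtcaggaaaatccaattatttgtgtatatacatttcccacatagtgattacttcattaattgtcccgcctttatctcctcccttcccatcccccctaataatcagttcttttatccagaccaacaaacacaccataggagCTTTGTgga

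Rnf43 and Znrf3 encode membrane ubiquitin ligases that remove Frizzled receptors from the cell surface, yet they stood far apart in level. Rnf43 had 0.698, 1.26, 0.800, 0.734 and 1.01 CPM on the arginine-deficient diet, against 0.809, 0.889, 0.383, 1.58 and 0.757 CPM on the normal diet. Its log2 fold change was 0.01 (SE 0.37, adjusted p = 0.999 by edgeR), and leaving out single libraries moved it between -0.20 and 0.33. Znrf3 had 21.4, 20.7, 25.5, 22.7 and 22.7 CPM on the arginine-deficient diet, against 19.4, 19.7, 21.2, 22.1 and 18.0 CPM on the normal diet. Znrf3 had the smallest SD relative to its mean of the 10 members on both diets, and its highest value was in the library richest in muscle. Its means were 22.6 ± 1.84 CPM on the deficient diet and 20.1 ± 1.58 CPM on the normal diet (± SD over 5 libraries each), with overlapping libraries and a log2 fold change of 0.17 (SE 0.11, adjusted p = 0.899 by edgeR). Without the 3 libraries richest in muscle, the log2 fold changes were 0.47 (SE 0.42) for Rnf43 and 0.15 (SE 0.14) for Znrf3. On mm10, Rnf43 (ENSMUSG00000034177.15) spans 87662722 to 87735539 of chromosome 11 on the plus strand, and Znrf3 (ENSMUSG00000041961.14) 5276324 to 5444847 of the same chromosome on the minus strand.

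Nkd1, which binds Dishevelled and dampens the signal, held 9, 4, 10, 7 and 6 counts on the arginine-deficient diet and 5, 4, 3, 3 and 5 counts on the normal diet. The mean was 0.325 ± 0.0749 CPM on the deficient diet and 0.232 ± 0.118 CPM on the normal diet (± SD over 5 libraries each). The diets overlapped, the highest normal-diet value, 0.421 CPM, being in the shallowest library, and the unfiltered fit gave Nkd1 a log2 fold change of 0.53 (SE 0.45, adjusted p = 0.860 by edgeR). Notum, a secreted enzyme that strips the lipid from Wnt ligands, had 1 count in arginine-deficient replicate 2 and is listed at 0 in the other 9 libraries. Of its exonic bases, 80.4% lie inside antisense gene bodies and 38.1% overlap exons of those genes. The labels do not say whether strand was used in counting. How far this overlap lowered the Notum count was not tested, and a 0 there is read as a listed value, not as absence. Nkd1 (ENSMUSG00000031661.12) lies at 88521354 to 88594884 of chromosome 8 on the plus strand, and Notum (ENSMUSG00000042988.10) at 120653788 to 120661175 of chromosome 11 on the minus strand.

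Lgr5, the receptor that marks dividing crypt stem cells and binds R-spondins, had 0, 1, 0, 4 and 1 counts on the arginine-deficient diet and 4, 0, 0, 1 and 4 counts on the normal diet. With sums of 6 counts on the deficient diet and 9 on the normal diet, over 5 libraries each, both diets stood on average under the limit of 3 counts per library, so no fold is given for Lgr5. Ascl2, the transcription factor that holds crypt cells in the stem state, had 0.412, 0.359, 0.837, 0.993 and 0.216 CPM on the arginine-deficient diet, against 0.432, 0.515, 0.255, 0.409 and 1.51 CPM on the normal diet. Its highest values on the deficient diet were in the libraries richest in muscle, and its highest on the normal diet was in the shallowest library; the part of muscle RNA in the Ascl2 values was not tested. The unfiltered fit gave Ascl2 a log2 fold change of -0.06 (SE 0.55, adjusted p = 0.991 by edgeR). Lgr5 (ENSMUSG00000020140.15) lies at 115450311 to 115587780 of chromosome 10, and Ascl2 (ENSMUSG00000009248.6) at 142966829 to 142969264 of chromosome 7, both on the minus strand.

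Sox9, a transcription factor of crypt base and Paneth cells, was well counted and varied widely between tumours. It had 66.5, 94.6, 31.5, 37.2 and 43.6 CPM on the arginine-deficient diet, against 58.1, 34.1, 46.7, 49.1 and 72 CPM on the normal diet. The deficient tumours held both the highest and the lowest value of all 10, and the lowest deficient ones were in the 2 libraries richest in muscle. Without the 3 libraries richest in muscle, the log2 fold change of Sox9 was 0.38 (SE 0.29, adjusted p = 0.767 by edgeR). Means were 54.7 ± 26.0 CPM on the deficient diet and 52.0 ± 14.1 CPM on the normal diet (± SD over 5 libraries each). The log2 fold change of Sox9 was 0.07 (SE 0.29, adjusted p = 0.998 by edgeR), and its sign turned when arginine-deficient replicate 1, arginine-deficient replicate 2 or normal-diet replicate 2 was left out, to -0.01, -0.22 and -0.05. Sox9 (ENSMUSG00000000567.5) spans 112782224 to 112787760 of chromosome 11, plus strand.

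**Figure D2:**
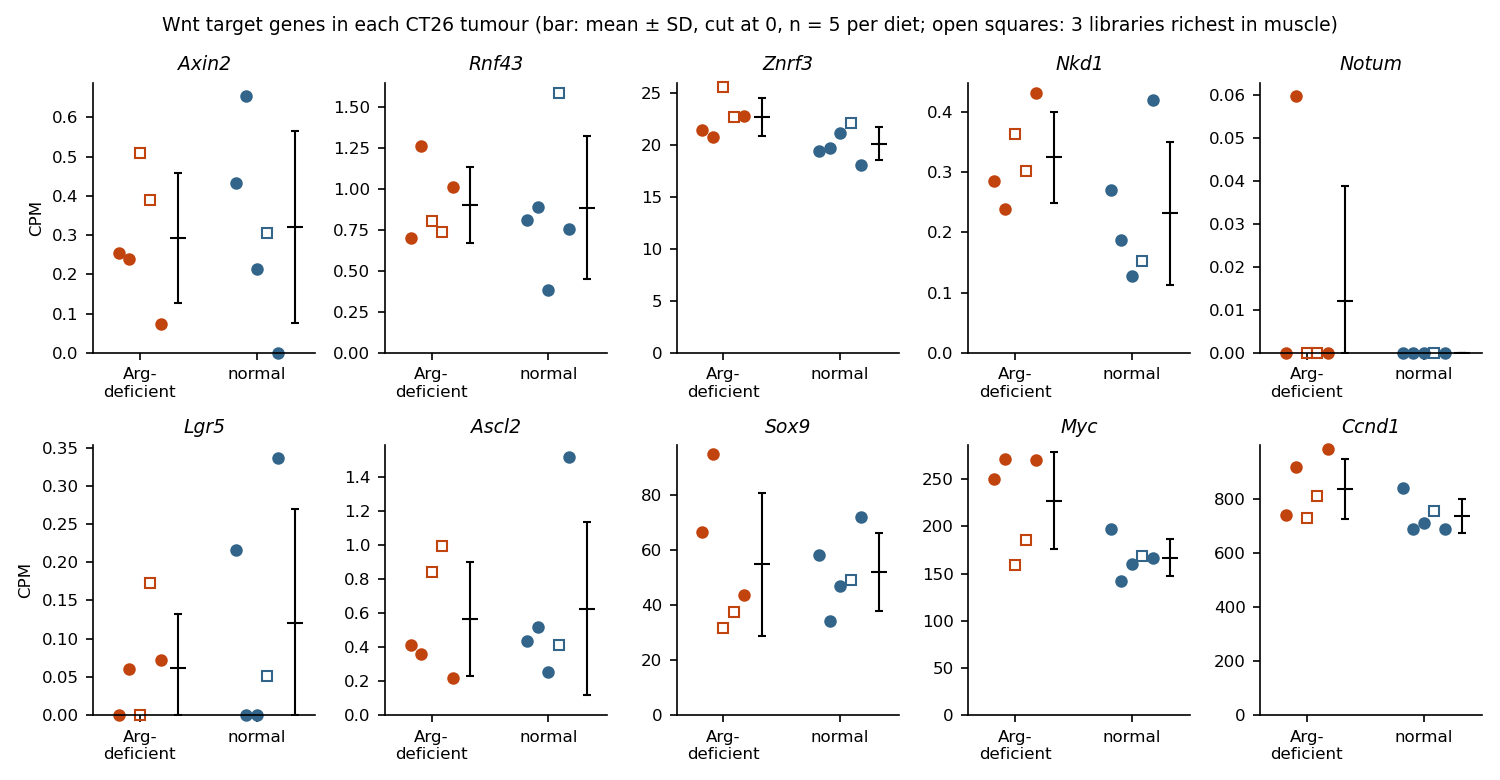
CPM of each of the 10 members in every library, with the arginine-deficient diet left and the normal diet right in each panel and the mean ± SD beside the points (n = 5, cut at 0), open squares marking the 3 libraries richest in muscle. The diets overlap in all 10 panels. In the Myc panel the 3 filled arginine-deficient points lie at 250 to 271 CPM. The open arginine-deficient points there, at 159 and 186 CPM, lie within the normal-diet range of 142 to 197 CPM.

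Myc, the transcription factor of growth and ribosome production, had the largest log2 fold change of the tested members. It had 250, 271, 159, 186 and 271 CPM on the arginine-deficient diet, against 197, 142, 160, 168 and 167 CPM on the normal diet. Replicates 1, 2 and 5 of the deficient diet lay above every normal-diet tumour, while replicates 3 and 4, the muscle-rich libraries, lay within the normal-diet range. The mean was 227 ± 51.7 CPM on the deficient diet and 167 ± 19.9 CPM on the normal diet (± SD over 5 libraries each). The log2 fold change was 0.45 (SE 0.16), with an unadjusted p of 0.0161 and an adjusted p of 0.579 (edgeR quasi-likelihood test). An unadjusted p under 0.05 was reached by 6.74% of all tested genes. Myc did not pass the test. Without the 3 libraries richest in muscle its log2 fold change was 0.67 (SE 0.13, adjusted p = 0.140 by edgeR). The diets of the fewer libraries that remained did not overlap, but the share of all genes that do so there was not counted. With limma voom and sample weights, Myc passed (log2 fold change 0.55, SE 0.12, adjusted p = 0.0329), as 1 of 373 genes that voom called in all. Myc (ENSMUSG00000022346.15) lies at 61985391 to 61990374 of chromosome 15, plus strand.

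Ccnd1, the D-type cyclin that carries cells out of the first gap phase of the cycle, was the most abundant member. It had 740, 918, 728, 809 and 981 CPM on the arginine-deficient diet, against 840, 688, 709, 753 and 688 CPM on the normal diet. Replicates 2 and 5 of the deficient diet stood above all normal-diet tumours and the others overlapped. Ccnd1 averaged 835 ± 111 CPM on the deficient diet and 736 ± 64.0 CPM on the normal diet (± SD over 5 libraries each; edgeR log2 fold change 0.18 with an SE of 0.12, adjusted p = 0.905). Without the muscle-rich libraries its log2 fold change was 0.27 (SE 0.14, adjusted p = 0.660 by edgeR). Of its exonic bases, 37.6% lie inside an antisense gene body and 23.4% overlap exons of that gene. Its count could gain or lose reads by this overlap, which was not tested. Ccnd1 (ENSMUSG00000070348.5) spans 144929931 to 144939925 of chromosome 7, minus strand.

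In the test of all genes, 0 of the 5 tested members passed at an adjusted p under 0.05, where 0.0541% of all tested genes did. Among the alternatives run, only limma voom called a member, and that member was Myc. Voom called 373 of all tested genes, against 7 with edgeR. At an unadjusted p under 0.05 there was 1 member of 5, Myc. The log2 fold change was above 0 in all 5, against 50.3% of all tested genes, with a median of 0.17 against 0.00 over all tested genes. Of the 5, Rnf43 at 0.01 and Sox9 at 0.07 changed sign in some fits with single libraries left out. No member had diets that did not overlap, as 1.65% of tested genes did. The other 5 members were under the filter on low counts and are not in these counts. In the unfiltered fit, Axin2 was at -0.14, Ascl2 at -0.06 and Nkd1 at 0.53, while Lgr5 and Notum had too few counts for a fold. The members were chosen with earlier results of these data known, so their counts and median are a description only.

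The tested members did not vary as 1 group over the 10 libraries. Myc and Ccnd1 went together most closely, with a Pearson r of 0.810 on log2 CPM. Sox9 and Myc had an r of 0.572, and Sox9 and Znrf3 one of -0.555. These are descriptions over 10 libraries that share their scaling and differ in muscle content.

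Genes were then ranked by how closely their log2 CPM followed each member over the 10 libraries. The 5 closest to Axin2 were Vwce (r of 0.949), Gpr174 (0.929), Fbxl13 (0.916), Fasl (0.908) and Cd8a (0.907). Cd8a encodes a chain of the CD8 co-receptor of cytotoxic T cells, and Fasl the death ligand that such cells carry. Cd8a had 11.1, 10.8, 21.9, 14.4 and 10.2 CPM on the arginine-deficient diet, against 16.0, 28.0, 16.7, 11.1 and 2.69 CPM on the normal diet. The highest Cd8a and Axin2 values were both in normal-diet replicate 2 and the lowest of both in normal-diet replicate 5. Axin2 rested on at most 14 counts per library, so this likeness is only a description. Summed over 9 T cell markers, the libraries held 48.1 to 73.7 CPM on the deficient diet and 22 to 73.4 CPM on the normal diet.

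**Figure D3:**
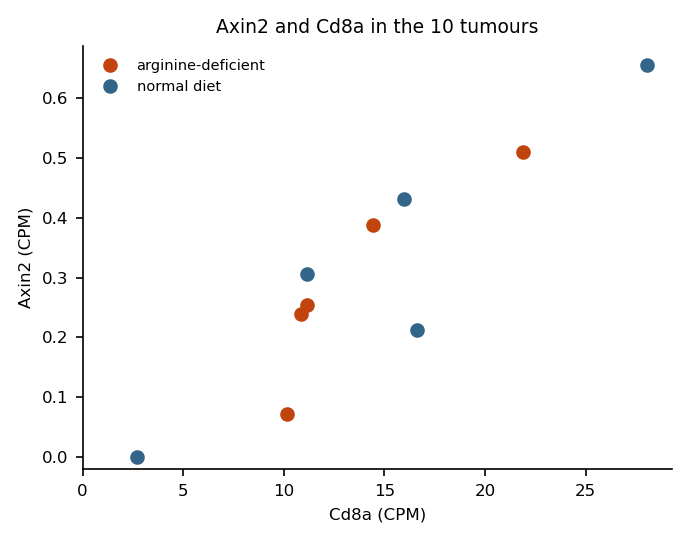
Axin2 against Cd8a, both in CPM, with 1 point per library (5 arginine-deficient, 5 normal diet). Both genes are highest in normal-diet replicate 2, at 0.655 CPM for Axin2 and 28.0 CPM for Cd8a, and both are lowest in normal-diet replicate 5, where Axin2 is at 0.

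For the other tested members the single closest gene was Atxn7l3b for Rnf43 (r of 0.809) and Grsf1 for Znrf3 (0.936). It was Plk2 for Sox9 (0.958), Zfpl1 for Myc (0.977) and Slc7a6os for Ccnd1 (0.943). Each was the highest of 12435 candidate genes, over 10 libraries.

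Upstream of the members, the CT26 tumours carried transcripts of every step of the pathway. The 12 lists of pathway genes also hold other Wnt targets, intestinal stem cell genes, SOX and MYC genes, MYC targets and D cyclins. Of their 213 listed symbols, 155 were tested, and 0 passed at an adjusted p under 0.05. At an unadjusted p under 0.05 there were 14, or 9.03%, of which 11 were higher and 3 lower on the arginine-deficient diet, against 6.74% of all tested genes. In 4 of the 155, 2.58%, the diets did not overlap, against 1.65% of all tested genes. These were Max, Ncl, Ddx18 and Ccnd2, all from the MYC and D cyclin lists and none from a list upstream of the members.

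Among ligands and the proteins that release them, 9 of 21 were tested, 3 with a log2 fold change above 0 and 6 below it, with a median of -0.16 that was 0.01 without arginine-deficient replicate 3 and -0.02 without the 3 muscle-rich libraries. Wnt10a was the leading ligand at 51.9 CPM per kilobase, above Wls, the carrier that brings Wnt proteins to the surface, at 12.9 and Porcn, the enzyme that lipidates them, at 6.39. Wnt10a averaged 109.6 ± 45.3 CPM on the deficient diet and 147 ± 55.5 CPM on the normal diet (± SD over 5 libraries each; edgeR log2 fold change -0.42 with an SE of 0.35, adjusted p = 0.953). Without arginine-deficient replicate 3 the value for Wnt10a was -0.19, and it was -0.23 without the muscle-rich libraries. Wnt9a, at 1.33 ± 0.348 CPM on the deficient diet and 0.891 ± 0.277 CPM on the normal diet, had the smallest p of the list (edgeR log2 fold change 0.58 with an SE of 0.29, adjusted p = 0.791). Wnt2b had a log2 fold change of -0.40 (adjusted p = 0.866 by edgeR).

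Of 16 receptors and co-receptors, 14 were tested, with 6 log2 fold changes above 0 and 8 below it and a median of -0.03. Ryk, a co-receptor of the tyrosine kinase family, was highest per length at 24.4 CPM per kilobase, ahead of Lrp6 at 8.38 and Ptk7 at 7.07. Fzd7, a Frizzled receptor that is itself a Wnt target, averaged 35.1 ± 6.51 CPM on the deficient diet and 27.4 ± 4.11 CPM on the normal diet (± SD over 5 libraries each; edgeR log2 fold change 0.36 with an SE of 0.15, adjusted p = 0.689). Lrp6 had a log2 fold change of -0.17 and Ptk7 one of -0.37, but all exonic bases of Ptk7 (100%) lie in the body of another gene. Of the R-spondins and the receptors Lgr4 and Lgr6, only the 2 receptors were counted well enough to test, with a median of -0.15 that was -0.0028 without the muscle-rich libraries. Lgr6 averaged 17.4 ± 7.81 CPM on the deficient diet and 24.9 ± 6.75 CPM on the normal diet (± SD over 5 libraries each; edgeR log2 fold change -0.52 with an SE of 0.30, adjusted p = 0.856), and its log2 fold change was -0.10 without the muscle-rich libraries. Lgr4 had a log2 fold change of 0.21, which was -0.02 without arginine-deficient replicate 3. At 3.09 CPM per kilobase for Lgr6 and 1.82 for Lgr4, both stood far above their relative Lgr5.

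Secreted antagonists were led by Dkk2, a blocker of Lrp5 and Lrp6, at 15.1 CPM per kilobase. Dkk2 had 22.2, 20.8, 34.7, 53.4 and 71.3 CPM on the arginine-deficient diet, against 37.5, 72.4, 92.4, 96.0 and 57.0 CPM on the normal diet. The 2 lowest tumours were on the deficient diet and the 3 highest on the normal diet. The Dkk2 log2 fold change was -0.82 (SE 0.35, adjusted p = 0.704 by edgeR), the lowest of the 6 tested antagonists, of which 2 had a value above 0 and 4 below it, with a median of -0.21. Kremen1, a Dkk receptor, stood at 8.66 CPM per kilobase with a log2 fold change of -0.03, and Dkk3 at 1.57 with one of -0.40. Sfrp1, which binds Wnt ligands, had one of 0.72 (adjusted p = 0.874 by edgeR), which was 0.25 without arginine-deficient replicate 3 and 0.07 without the muscle-rich libraries. Dkk1 and Dkk4, antagonists known as Wnt targets, are listed at 0 in every library. So are Acta1 of skeletal muscle and Itgam of macrophages, although the markers of those cells summed to as much as 7191 and 3351 CPM in a library, and a 0 in this table is not read as absence.

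All 18 genes of the destruction complex and Dishevelled were tested, 11 above 0 and 7 below it, with a median of 0.04. Dvl3, a Dishevelled protein that relays the signal from Frizzled, averaged 76.8 ± 12.3 CPM on the deficient diet and 60.5 ± 3.99 CPM on the normal diet (± SD over 5 libraries each; edgeR log2 fold change 0.34 with an SE of 0.12, adjusted p = 0.578). Btrc, which marks beta-catenin for breakdown, had a log2 fold change of -0.19 and the kinase Csnk1e one of 0.28. Csnk1d, Gsk3a and Dvl1 were the highest per length, at 40.0, 36.7 and 34.2 CPM per kilobase.

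In the nucleus, 16 of 18 listed symbols were tested, 7 above 0 and 9 below it, with a median of -0.03. Ctnnb1, which encodes beta-catenin, stood at 37.2 CPM per kilobase with a log2 fold change of 0.09, although 67.8% of its exonic bases lie in the body of another gene. Only Aes, a short corepressor of the Groucho family, was higher, at 87.5 CPM per kilobase, with a log2 fold change of -0.32 that was -0.06 without normal-diet replicate 5, and Pygo2 followed beta-catenin at 23.3. Lef1, a DNA-binding partner of beta-catenin and itself a target, averaged 9.92 ± 1.25 CPM on the deficient diet and 7.07 ± 2.11 CPM on the normal diet (± SD over 5 libraries each; edgeR log2 fold change 0.48 with an SE of 0.22, adjusted p = 0.723). The corepressor gene Tle3 had a log2 fold change of 0.36 (SE 0.14, adjusted p = 0.625 by edgeR). With voom, which called 373 genes in all, its adjusted p was 0.0369.

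Of 29 other listed symbols of Wnt targets, 27 were in the table and 17 were tested, 11 above 0 and 6 below it, with a median of 0.03. Cd44, a receptor for hyaluronan, was the highest per length at 111 CPM per kilobase, followed by Plaur, the urokinase receptor, at 89.3 and Jun at 42.1. Cd44 averaged 763 ± 101 CPM on the deficient diet and 747 ± 93.3 CPM on the normal diet (± SD over 5 libraries each), a log2 fold change of 0.03. Plaur averaged 279 ± 94.3 CPM on the deficient diet and 189 ± 54.7 CPM on the normal diet (± SD over 5 libraries each; edgeR log2 fold change 0.56 with an SE of 0.26, adjusted p = 0.738). The transcription factor gene Ets2 had a log2 fold change of 0.34 (SE 0.13, adjusted p = 0.621 by edgeR). As among the members, some of these targets were abundant and others, Sp5 among them, were near 0.

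Genes of intestinal stem cells other than Lgr5 and Ascl2 were tested in 12 of 15, 4 above 0 and 8 below it, with a median of -0.13. Bmi1, Lrig1 and Cdca7 led them, at 39.8, 35.3 and 24.4 CPM per kilobase. Lrig1, a brake on growth factor receptors that marks slow-cycling crypt cells, averaged 178 ± 30.0 CPM on the deficient diet and 216 ± 16.8 CPM on the normal diet (± SD over 5 libraries each; edgeR log2 fold change -0.28 with an SE of 0.13, adjusted p = 0.753). The RNA-binding protein gene Msi1 had a log2 fold change of -0.41 (SE 0.19, adjusted p = 0.749 by edgeR). Smoc2, a secreted matrix protein that marks crypt stem cells, had 0.603, 0, 8.0, 6.48 and 0.649 CPM on the arginine-deficient diet, against 0.0540, 0.187, 0.766, 3.73 and 1.35 CPM on the normal diet. Its 3 highest libraries were the 3 richest in muscle, and its log2 fold change of 1.40 (SE 1.10) was -0.36 without them.

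The relatives of Sox9 were tested in 7 of 16, 2 above 0 and 5 below it, with a median of -0.20. Per length, Sox4 stood at 22.4 CPM per kilobase, above the 12.9 of Sox9, with Sox18 at 4.18 and Sox13 at 1.69, though 57.4% of the exonic bases of Sox4 lie in another gene body. By edgeR, the log2 fold changes were -0.20 for Sox4 (adjusted p = 0.943), -0.33 for Sox18 (adjusted p = 0.943) and -0.27 for Sox17 (adjusted p = 0.976). With single libraries left out, Sox18 ran from -0.47 to -0.15 and Sox17 from -0.47 to -0.09, and without the muscle-rich libraries they were at -0.59 and -0.73.

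**Figure D4:**
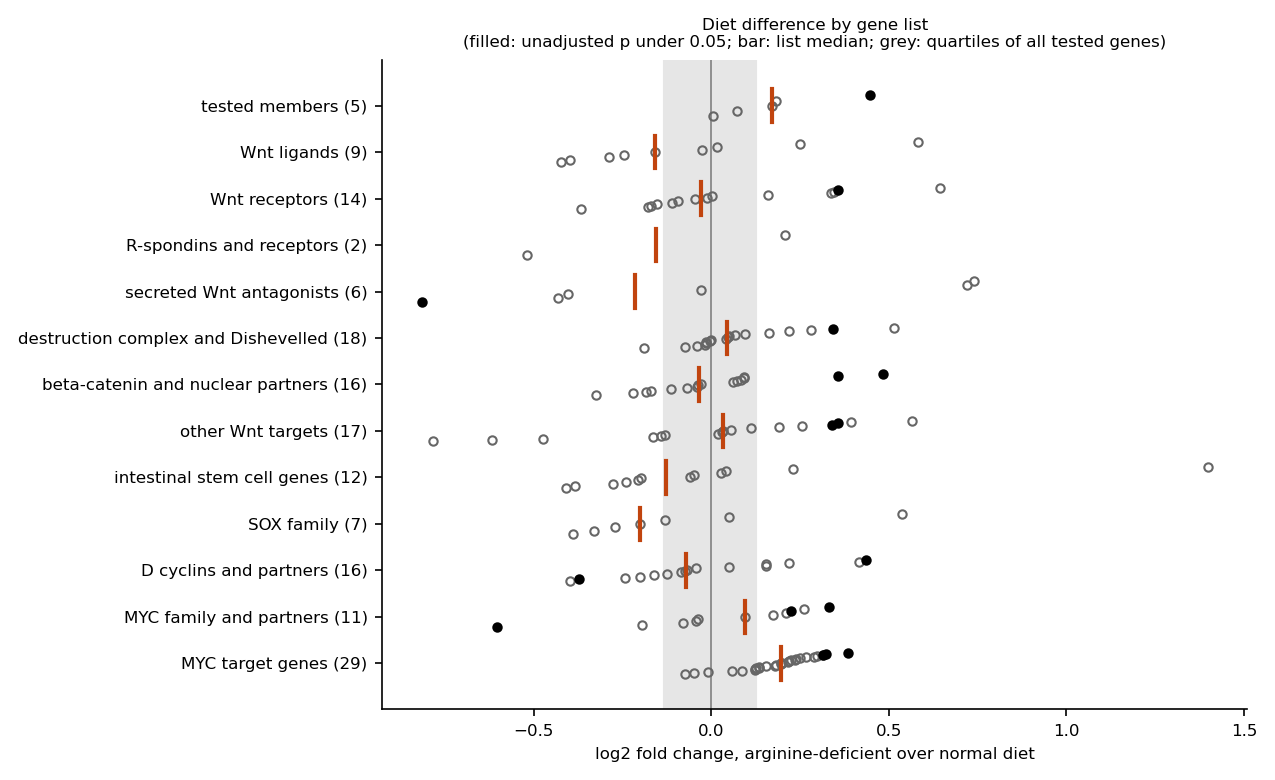
Log2 fold change, arginine-deficient over normal diet, of each tested gene in the member list and 12 pathway lists, with the number tested in brackets, filled points for an unadjusted p under 0.05 and a bar at each list's median. The 5 tested members lie right of 0, though Rnf43 is almost on it at 0.01. The MYC target genes mostly lie right of 0, with a median of 0.20, and the other 11 lists lie on both sides of it.

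Around Myc, 11 of 15 listed symbols of family members and partners were tested, 6 above 0 and 5 below it, with a median of 0.09. Max, the partner that Myc needs to bind DNA, had 81.1, 79.98, 94.6, 77.7 and 77.7 CPM on the arginine-deficient diet, against 74.6, 72.9, 64.5, 69.3 and 70.4 CPM on the normal diet. Every deficient tumour lay above every normal-diet tumour, with a log2 fold change of 0.23 (SE 0.10, adjusted p = 0.695 by edgeR). Mxd3 and Mxi1 encode proteins that compete with Myc for Max. Mxd3 averaged 28.0 ± 8.34 CPM on the deficient diet and 42.7 ± 15.3 CPM on the normal diet (± SD over 5 libraries each; edgeR log2 fold change -0.60 with an SE of 0.25, adjusted p = 0.688), while Mxi1 had a log2 fold change of 0.33 (SE 0.14, adjusted p = 0.700).

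Of 30 listed genes that Myc is known to activate, mostly for making ribosomes, 29 were tested, 26 above 0 and 3 below it, where 50.3% of all tested genes were above 0. Their median log2 fold change was 0.20, against 0.00 over all tested genes, and it was 0.21 without the 3 muscle-rich libraries and 0.14 to 0.25 with single libraries left out. None passed the adjusted test, and 3 had an unadjusted p under 0.05, all higher, against 6.74% of all tested genes in either direction. In 2 the diets did not overlap, against 1.65% of all tested genes. The list was chosen with earlier results of these data known, so these counts and the median are a description only. Ncl encodes nucleolin, an abundant protein of the nucleolus. It had 1620.5, 1679, 1716, 1715 and 1876 CPM on the arginine-deficient diet, against 1304, 1259, 1286, 1393 and 1349 CPM on the normal diet. The diets of Ncl did not overlap, with a log2 fold change of 0.39 (SE 0.11, adjusted p = 0.358 by edgeR). DESeq2, which called 130 genes in all, called Ncl (adjusted p = 4.7e-05). The RNA helicase gene Ddx18 averaged 76.5 ± 13.2 CPM on the deficient diet and 61.5 ± 3.62 CPM on the normal diet (± SD over 5 libraries each; edgeR log2 fold change 0.32 with an SE of 0.12, adjusted p = 0.647), its lowest deficient value of 65.0 CPM being just above the highest normal-diet one of 64.9 CPM. Gnl3, a nucleolar GTP-binding protein of stem and tumour cells, had a log2 fold change of 0.32 (SE 0.11, adjusted p = 0.548 by edgeR). Ldha, the lactate dehydrogenase subunit, and Hspd1, a mitochondrial chaperone, were the highest per length at 478 and 200.1 CPM per kilobase, ahead of Ncl at 149, with log2 fold changes of 0.06 and 0.20.

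The sequence that Myc and Max read, the E-box CACGTG, is the same on both strands and occurs in 7.15% of all 32851 promoter windows. It was found in 6 of the 24 MYC target genes that have a window, where a gene counts if any of its windows holds it. The first share is of windows and the second of genes, so they are not compared. The window of Ncl is shown as that of the listed target with the smallest p, and that of Cdk4 because it held E-boxes. Ncl had no E-box in its window. Cdk4, the kinase partner of D cyclins, held 4, in capitals, and had a log2 fold change of -0.07 (SE 0.14, adjusted p = 0.998 by edgeR).
Ncl, chr1:86359406-86359705, minus strand: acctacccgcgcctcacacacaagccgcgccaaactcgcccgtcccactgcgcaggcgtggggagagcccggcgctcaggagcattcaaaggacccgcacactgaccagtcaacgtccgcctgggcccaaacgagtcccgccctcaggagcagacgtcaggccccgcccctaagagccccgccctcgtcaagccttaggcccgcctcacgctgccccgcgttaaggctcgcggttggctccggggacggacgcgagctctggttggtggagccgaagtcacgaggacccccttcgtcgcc
Cdk4, chr10:127063285-127063584, plus strand: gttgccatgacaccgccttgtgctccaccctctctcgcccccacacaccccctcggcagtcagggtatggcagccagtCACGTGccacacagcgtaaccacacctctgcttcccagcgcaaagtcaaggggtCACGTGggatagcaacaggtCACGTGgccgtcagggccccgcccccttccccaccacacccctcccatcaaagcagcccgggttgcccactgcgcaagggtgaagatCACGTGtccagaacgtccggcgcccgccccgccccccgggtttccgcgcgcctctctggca

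Around Ccnd1, 16 of 17 D cyclins, partners and inhibitors were tested, 6 above 0 and 10 below it, with a median of -0.07. Ccnd2, another D cyclin, had 162, 145, 154, 154 and 182 CPM on the arginine-deficient diet, against 113, 121, 118, 124 and 113 CPM on the normal diet. The diets did not overlap, and its log2 fold change of 0.44 (SE 0.09, adjusted p = 0.174 by edgeR) had the smallest p of all pathway genes tested. Ccnd2 passed with DESeq2 (adjusted p = 0.000434), with voom (adjusted p = 0.0117) and with the GC slope of each library as a covariate in edgeR (adjusted p = 0.0268). These alternatives called 130, 373 and 90 genes in all. Per length it stood at 14.7 CPM per kilobase, under Ccnd1. Cdkn2c, an inhibitor of the kinases that D cyclins activate, averaged 76.5 ± 11 CPM on the deficient diet and 98.9 ± 20.2 CPM on the normal diet (± SD over 5 libraries each; edgeR log2 fold change -0.37 with an SE of 0.15, adjusted p = 0.685). Its relative Cdkn2d had a log2 fold change of -0.40 (adjusted p = 0.834 by edgeR). Cdk4, at 126 CPM per kilobase, and the inhibitor Cdkn1a, at 79.7, were the highest of the list per length.

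**Figure D5:**
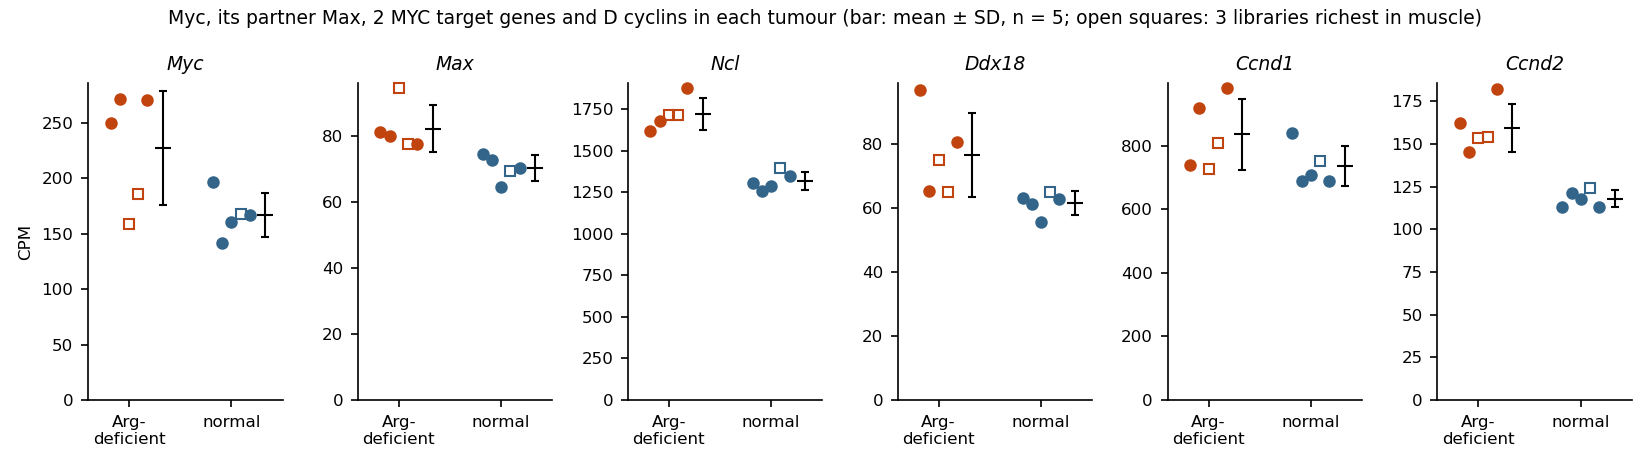
CPM of Myc, Max, Ncl, Ddx18, Ccnd1 and Ccnd2 in every library, with the arginine-deficient diet left, the normal diet right, the mean ± SD beside the points (n = 5) and open squares for the 3 libraries richest in muscle. The diets overlap for Myc and Ccnd1 and do not for Max, Ncl, Ddx18 and Ccnd2, where Ccnd2 sits at 145 to 182 CPM on the deficient diet and at 113 to 124 CPM on the normal diet.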

How the data were processed

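RNA of 10 tumour samples was extracted with TRIzol and sequenced on Illumina machines, per the labels' protocols. Raw read counts per gene, with no normalization applied, are what the authors deposited. The submitters' processing notes name FastQC, STAR, featureCounts and mm10; no version, annotation or strand setting is given in the sources used here. Columns were matched to libraries by the number in each sample's description, and the title words Arg and Control were read as the 2 diets from the design text. No value column was left unused.

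The members and the gene lists were chosen with earlier results of these data known. Symbols and positions came from GENCODE M21: of the identifiers, 21379 matched version included, 437 matched in a different version and 33 found no match. Every pair of libraries differed beyond sampling noise (chi-square of at least 16.7 per degree of freedom), so none was merged. Totals were 12013178 to 31530123 counts, and the 12929 genes kept by filterByExpr (minimum count 10, minimum total 15) held 99.9% of them. The test was edgeR's quasi-likelihood F test (edgeR 4.0.16, R 4.3.3) with TMM factors, diet as the only term, and p-values adjusted by Benjamini-Hochberg over all tested genes with a threshold of 0.05. The biological coefficient of variation was 26.5%. SEs were derived from the fold change and F. Log2 CPM for correlations used a prior count of 2. The limit of detection, 3 counts, covers counting error only. Levels per length divide CPM by the exonic length. Overlap is the share of a gene's exonic bases inside other gene bodies, and it is given for a named gene where 50% or more, and for Ccnd1. For Notum and Ccnd1 the share that overlaps exons of other genes is given too.

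Named genes were the 10 members, up to 3 tested genes with the smallest p and a mean of at least 1 CPM in each pathway list, the 3 highest per length in each list, the 5 genes most like Axin2 and the 1 most like each other tested member, leaving out predicted models. Sp5, Dkk1, Dkk4 and the marker genes named were picked outside that rule with values known, as was Cdk4's promoter. The listed symbols Tle5, Miz1, Wisp1 and Wisp2 matched no row. They are other names of Aes, Zbtb17, Ccn4 and Ccn5, which are listed too, so the list sizes count these genes under both names. The T cell markers Trac, Trbc1 and Trbc2 matched no gene.

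The edgeR step was tested on simulated counts with known changes. Alternatives were other size factors (RLE, upper quartile), no filter, a filter at 1 CPM in 5 or more libraries, DESeq2 1.42.0, voom with sample weights (limma 3.58.1), a replicate block, each library's GC slope as a covariate, leaving out each library, and leaving out the 3 libraries richest in 10 muscle transcripts.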

Additional observations from a re-analysis of the deposited data

Results flagged for a closer look

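Each of 84 groups of 5 libraries, for the members and the named genes, was checked for 1 library standing far from the other 4, and 3 did, where chance gives about 1 in 20 groups. Ascl2 stood at 1.51 CPM in normal-diet replicate 5, the shallowest library, against 0.255 to 0.515 CPM in the other normal-diet libraries. Max stood at 94.6 CPM in replicate 3 of the deficient diet, which held most muscle RNA, against 77.7 to 81.1 CPM in the other arginine-deficient libraries. Lrig1 stood at 126 CPM in the same library, against 183 to 198 CPM in the other arginine-deficient ones. Without the 3 libraries richest in muscle, the log2 fold change was 0.18 for Max and -0.19 for Lrig1, against 0.23 and -0.28 with all libraries. The part of depth in the Ascl2 value was not tested.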

How the results depend on the processing

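The members' count of 0 called genes held under every alternative run except voom with sample weights, which called 1, Myc. The members' median log2 fold change, 0.17, was 0.38 without the 3 libraries richest in muscle and ran from 0.14 to 0.22 with single libraries left out. Over all genes, the 7 called (7 higher, 0 lower) became 130 with DESeq2 (68 higher, 62 lower), 373 with voom (205 higher, 168 lower), 90 with the GC slope as a covariate (51 higher, 39 lower) and 18 without the muscle-rich libraries, all 18 higher. Leaving out single libraries gave 0 to 16 calls, 0 to 15 higher and 0 to 4 lower. Without normal-diet replicate 1 or 3 there were 0, with 2 when deficient-diet replicate 1, 2 or 5 or replicate 2 of the normal diet was left out, without arginine-deficient replicate 3 there were 16 and without normal-diet replicate 5 there were 15. Of the pathway genes, 0 called became 2 with DESeq2, 5 with voom and 1 with the GC slope. The causes were not tested.

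The replicate numbers did not pair the samples: same-numbered libraries correlated at -0.35 to 0.18 in their deviations from the group means, and 1 of 5 numbers matched best with itself. With the replicate block, 1 gene was called, higher on the arginine-deficient diet, and Sox9 had a log2 fold change of -0.0219.

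Rnf43 had one of -0.0178 with upper quartile factors. With single libraries left out, Rnf43 ran from -0.20 to 0.33, Sox9 from -0.22 to 0.22 and Lgr4 from -0.0162 to 0.35. The median log2 fold changes of the receptor, destruction complex, nuclear partner and other target lists, all near 0, changed sign with some libraries left out, the receptors running from -0.08 to 0.03, the destruction complex from -0.02 to 0.09, the nuclear partners from -0.04 to 0.05 and the other targets from -0.01 to 0.10. Without the muscle-rich libraries the median was 0.14 for the other targets and 0.0050 for the MYC family. With single libraries left out, Lrp6 ran from -0.26 to -0.08, Ptk7 from -0.56 to -0.24, Csnk1e from 0.17 to 0.40, Btrc from -0.24 to -0.11, Lrig1 from -0.32 to -0.17 and Sox4 from -0.35 to -0.14. Smoc2 was at -0.36 without the muscle-rich libraries. Myc ran from 0.37 to 0.56 with single libraries left out (adjusted p by edgeR from 0.172 to 0.999). Members under 1 CPM rest on at most 31 counts per library, which limits them to large differences.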
